A study of Mus musculus with 26 samples.

Results

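The genes described here are the 10 members of the MHC class II antigen presentation machinery of the mouse, chosen by symbol from the 39017 gene rows of the deposited count files. They are H2-Aa, H2-Ab1 and H2-Eb1 (the classical chains), Cd74 (the invariant chain), H2-DMa, H2-DMb1 and H2-DMb2 (the H2-M peptide editor), H2-Oa and H2-Ob (the H2-O inhibitor of that editor) and Ciita (the class II transactivator). All 10 symbols were found once in each file, and all 10 passed the filter on low counts in every fit. RNA came from epididymal fat of male wild type C57BL/6J mice that entered the diets at 9 to 10 weeks of age, after collagenase digestion and separation into floating adipocytes and pelleted stromal vascular cells (SVCs). Lean mice (LFD) ate a 10% fat diet for 12 weeks, obese mice (HFD) a 60% fat diet for 12 weeks, and formerly obese mice (SW) the 60% fat diet for 9 weeks and then the 10% fat diet for 3 weeks. The columns that could be tied to a labelled group were 3 adipocyte libraries per diet and, in SVCs, 2 HFD libraries, 1 LFD library and 3 SW libraries. The fractions were not sorted by surface marker, so each is a mixture of cells, and the labels do not say whether a library is 1 animal or a pool.

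MHC class II molecules are heterodimers on the surface of antigen presenting cells that show peptides from the endosomal pathway to CD4+ T cells. A new alpha and beta pair is held by the invariant chain, proteases such as cathepsin S cut that chain down to a short peptide in the groove, and H2-M exchanges the peptide for antigen while H2-O restrains H2-M. Transcription of the classical chains, the invariant chain and H2-M depends largely on the coactivator CIITA, which binds no DNA itself. It docks on a complex of RFX, CREB and NF-Y factors at the X and Y boxes of the class II promoters. Macrophages, dendritic cells and B cells can carry class II, and interferon gamma can induce it. C57BL/6 mice have a defective E alpha gene, so that H2-A is their only classical class II protein.

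Total counts ranged from 5781902 to 23725647 per library. All 8 adipocyte markers examined (among them Adipoq, which encodes adiponectin) were lower in SVCs than in adipocytes in both HFD and SW mice. Other cells were less clearly divided, as 4 of 5 endothelial markers were also lower in SVCs on both diets. Of 11 macrophage markers, 3 in HFD and 8 in SW mice were higher in SVCs, where 16.2% and 35.6% of all genes were. The SVC HFD libraries, named 212 and 411 in the deposited columns, stood apart from the other SVC libraries and from each other. In library 411 mitochondrial genes took 33.5% of counts, against 4.36% to 9.54% in the other 5 SVC libraries, and in library 212 hemoglobin genes took 0.287%, against 2.76% to 5.15% in the other 5. Results for the 10 members that rest on these libraries are given with and without them.

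Where a gene is encoded and what lies before its start is shared by much of the set. In GENCODE annotation of GRCm38, a later build than the mm9 named in the submitters' notes, 8 of the 10 genes lie between positions 34092340 and 34316674 of chromosome 17. RefSeq promoter sequences were at hand for 7 of the 10 members, all of them in the chromosome 17 cluster. The Y box letters TGATTGG were found upstream of 6 of the 7 (H2-Oa, H2-DMb2, H2-DMb1, H2-Ob, H2-Aa and H2-Eb1) and the X box letters (AAC, any 2 bases, then ATGATG) upstream of 4 (H2-DMb2, H2-DMb1, H2-Ob and H2-Eb1). The X box, the docking site of RFX and CREB, preceded the Y box, the site of NF-Y, by 15 to 18 bases in those 4. Among 32536 mouse promoters searched over the same 250 upstream bases on either strand, 7.21% held the Y box, 0.12% the X box and 0.0277% both. These shares include the members themselves, so the 4 members with both boxes are among the 39 promoters with the X box and the 9 with both. The letters were chosen after the promoters of these genes had been seen, the motifs do not overlap, and no match was found for H2-DMa. The stretches around the motifs of 4 members follow, because such boxes are where the partners of CIITA are known to dock, with each motif in capitals and all read 5′ to 3′ on the strand of the gene.
H2-Eb1, chr17:34305761-34305818 (GRCm38.p6, plus strand): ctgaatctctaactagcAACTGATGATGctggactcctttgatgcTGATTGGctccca
H2-Ob, chr17:34238801-34238858 (GRCm38.p6, plus strand): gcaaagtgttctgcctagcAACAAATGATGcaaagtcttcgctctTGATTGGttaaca
H2-Aa, chr17:34287861-34287918 (GRCm38.p6, minus strand): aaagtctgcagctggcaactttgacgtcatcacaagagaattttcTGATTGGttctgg
H2-Oa, chr17:34092289-34092346 (GRCm38.p6, plus strand): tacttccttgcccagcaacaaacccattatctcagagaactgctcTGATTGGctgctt
H2-Eb1 and H2-Ob hold both motifs within this window, whereas H2-Aa and H2-Oa hold the Y box alone in these exact letters. A match describes the letters only.

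The chaperone and the classical chains were by far the most abundant of the 10 genes, and in HFD adipocytes the inhibitor chains were the scarcest. Per kilobase of the longest annotated transcript, the mean level in HFD adipocytes was 1440 CPM per kb (CPM, counts per 1000000 library counts) for Cd74, 563 for H2-Ab1, 459 for H2-Eb1 and 329 for H2-Aa. The editor chains followed at 90.6 CPM per kb for H2-DMb1 and 32.1 for H2-DMa. Ciita had 3.24 CPM per kb, H2-DMb2 1.70, H2-Ob 1.01 and H2-Oa 0.562. In HFD adipocytes the 3 libraries of each gene in this order did not overlap those of its neighbours. In LFD adipocytes the order of the upper 6 genes held on the mean, but H2-Ab1 and H2-Eb1 overlapped, as did H2-DMb1 and H2-DMa, and Ciita was lowest with 0.464 CPM per kb, overlapping H2-Oa with 0.583. In SW SVCs the upper 4 genes had the same order, with Cd74 at 6193 CPM per kb, H2-Ab1 at 2793, H2-Eb1 at 1899 and H2-Aa at 1281. There H2-DMb1 (198) and H2-DMa (196) did not differ beyond their spread, and the lower end ran from H2-DMb2 (15.8) through Ciita (13.5) and H2-Oa (9.63) to H2-Ob (5.79).

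**Figure D1:**
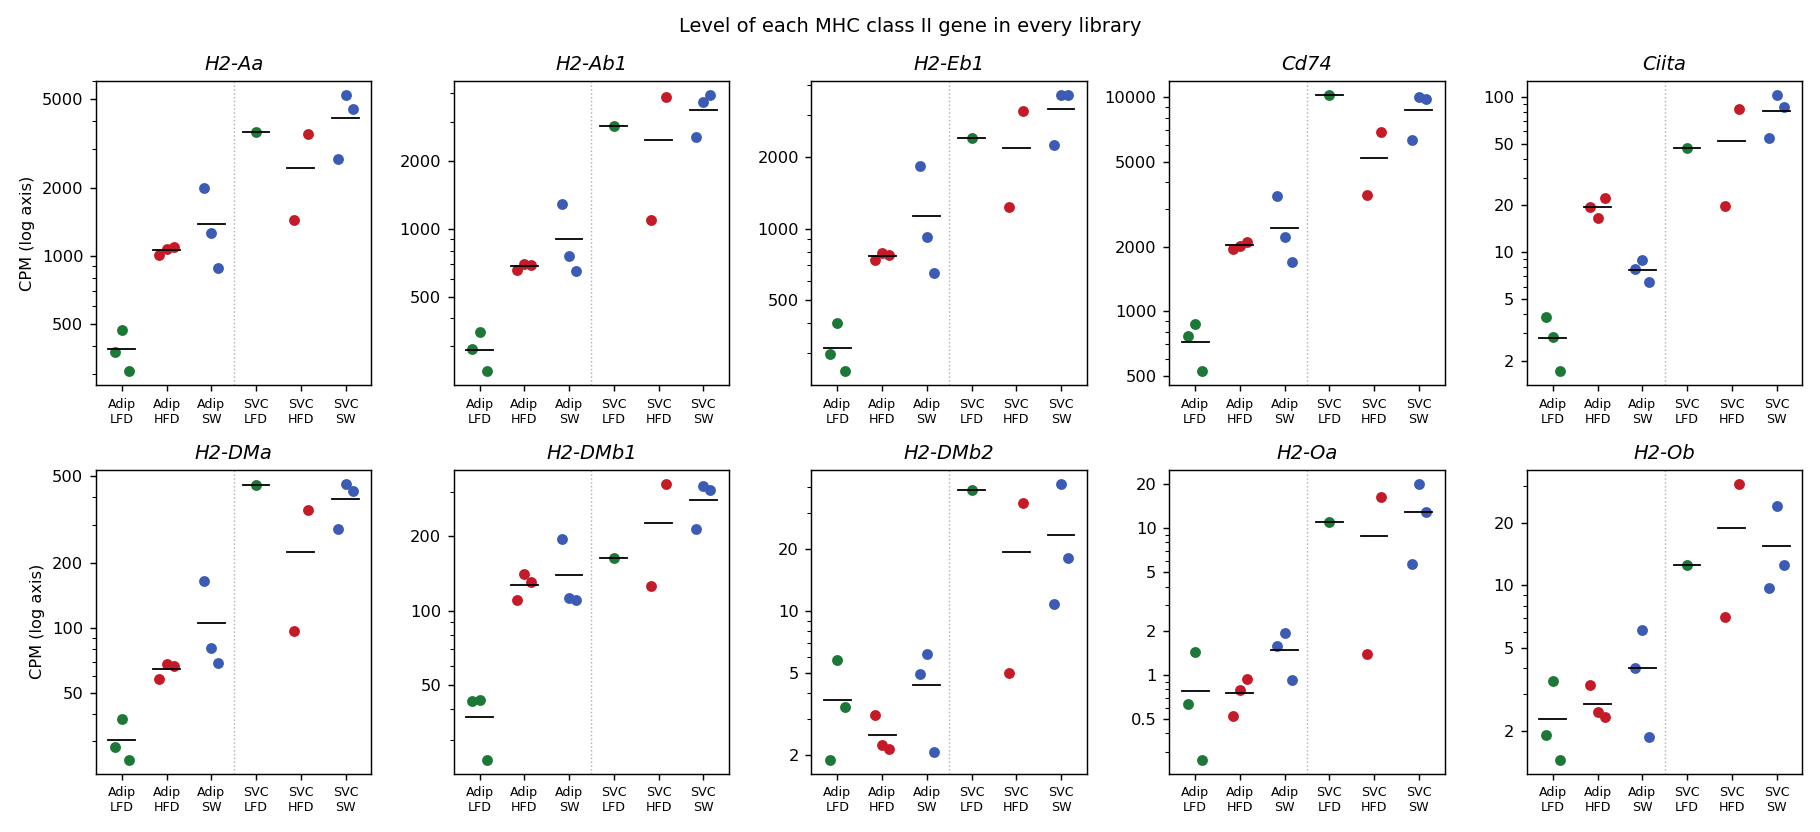
CPM of each of the 10 genes on log axes in every library, for adipocytes (Adip, left of the dotted line) and SVCs (right), with points for libraries and bars for group means. CPM is scaled within each fraction, so levels compare across the dotted line only roughly. For all but H2-DMb2, H2-Oa and H2-Ob every LFD adipocyte library sits below every other adipocyte library, and the mean of Ciita alone sits lower in SW than in HFD adipocytes.

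In adipocytes, obesity was accompanied by higher levels of most of the machinery. Of the 10 genes, 7 were higher in HFD than in LFD mice and none was lower, at an edgeR quasi-likelihood adjusted p under 0.05, where 26.5% of all 14461 genes tested were higher and 25% lower. In these 7 the 3 HFD libraries lay above all 3 LFD libraries, as they did for 32.1% of all genes tested. The median log2 fold change of the 10 members was 1.25, against -0.03 over all genes. Since CPM in a mixed fraction sets more cells of a type beside more RNA per cell, these cannot be told apart here. No label says that the libraries came from separate animals, so p-values measure the spread between these libraries, which may be technical.

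H2-Aa, the alpha chain of H2-A, had 1008, 1072 and 1101 CPM in the 3 HFD adipocyte libraries and 376, 472 and 308 CPM in the 3 LFD libraries. That is a 2.75-fold difference (log2 1.46, SE 0.28, edgeR adjusted p = 0.00201). Its partner H2-Ab1 had 658, 697 and 692 CPM in HFD and 291, 347 and 233 CPM in LFD libraries, a log2 difference of 1.23 (SE 0.26, edgeR adjusted p = 0.00304). The HFD libraries of both genes lay within a narrow band, all above the highest LFD library. H2-Eb1, the beta chain of H2-E, had 741, 789 and 771 CPM in HFD and 296, 401 and 251 CPM in LFD libraries, and rose by 1.28 on the log2 scale (SE 0.34, edgeR adjusted p = 0.0101). The E alpha pseudogene H2-Ea-ps, which would pair with it, was listed at 0 counts in all 15 libraries, which allows at most 3 counts in a library for counting error only.

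After 3 weeks back on the low fat diet the classical chains remained above the lean level. In SW adipocytes H2-Aa had 2018, 1269 and 889 CPM, H2-Ab1 1296, 759.6 and 647 CPM and H2-Eb1 1827, 920.4 and 649 CPM. The first of these libraries was the highest of all 9 adipocyte libraries for each chain, and every SW library stayed above every LFD library. Against LFD, log2 fold changes were 1.85 for H2-Aa, 1.63 for H2-Ab1 and 1.84 for H2-Eb1 (SE 0.29, 0.26 and 0.34, edgeR adjusted p = 0.00166, 0.00199 and 0.00484). SW and HFD overlapped for each chain, and the log2 differences had 95% intervals of -0.23 to 1.01 for H2-Aa, -0.17 to 0.96 for H2-Ab1 and -0.18 to 1.30 for H2-Eb1. Each interval holds both a small fall and a clear rise, so the chains are not shown to be alike in SW and HFD.

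Cd74, which chaperones the chains and also serves as a receptor for MIF, had the highest level of the set. It is encoded on chromosome 18, and Ciita on chromosome 16, away from the cluster. Cd74 had 1964, 2015 and 2112 CPM in HFD adipocytes, 762, 874 and 525 CPM in LFD adipocytes and 3470.1, 2216 and 1695 CPM in SW adipocytes. LFD was lowest without overlap, and SW spanned the HFD range on both sides. Cd74 was 2.82-fold higher in HFD than in LFD (log2 1.49, SE 0.28, edgeR adjusted p = 0.00169) and 3.41-fold higher in SW than in LFD (log2 1.77, SE 0.28, edgeR adjusted p = 0.00199). The SW minus HFD difference was 0.28 on the log2 scale (95% interval -0.33 to 0.89).

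The chains of the peptide editor moved with the classical chains where they were abundant. H2-DMb1 had 111, 141 and 130.4 CPM in HFD, 43.5, 43.5 and 25.1 CPM in LFD and 194, 112 and 110.3 CPM in SW adipocytes. It was 3.40-fold higher in HFD than in LFD (log2 1.77, SE 0.27, edgeR adjusted p = 4.75e-04) and 3.70-fold higher in SW (log2 1.89, SE 0.27, edgeR adjusted p = 9.87e-04). H2-DMa, the alpha chain, had 58.0, 68.3 and 66.9 CPM in HFD, 28.4, 38.1 and 24.7 CPM in LFD and 165, 81.3 and 69.2 CPM in SW adipocytes. Its groups did not overlap in any pair, with SW highest, and SW lay wholly above HFD for 23.3% of all genes tested. It rose by 1.07 from LFD to HFD on the log2 scale (SE 0.30, edgeR adjusted p = 0.013), a call that was lost without LFD library 406 (log2 0.94, edgeR adjusted p = 0.0518). SW minus HFD was 0.70 (SE 0.29, edgeR adjusted p = 0.0881), which passed the threshold without SW library 409 (log2 0.93, edgeR adjusted p = 0.0402) and shrank without SW library 407 (log2 0.22, edgeR adjusted p = 0.359).

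The second beta chain of the editor and both chains of its inhibitor were scarce and showed no called change between diets. H2-DMb2, a close copy of H2-DMb1 with which it shares reads that the counting had to divide, had 3.16, 2.25 and 2.15 CPM in HFD, 1.90, 5.78 and 3.43 CPM in LFD and 4.94, 6.19 and 2.07 CPM in SW adipocytes. H2-Oa had 0.526, 0.793 and 0.939 CPM in HFD, 0.634, 1.44 and 0.264 CPM in LFD and 1.58, 1.92 and 0.930 CPM in SW adipocytes, from 2 to 32 counts per library. H2-Ob had 3.31, 2.46 and 2.32 CPM in HFD, 1.90, 3.46 and 1.45 CPM in LFD and 3.99, 6.13 and 1.86 CPM in SW adipocytes. All 3 diets overlapped for each of the 3 genes. HFD minus LFD log2 differences were -0.64 for H2-DMb2 (95% interval -1.64 to 0.36), -0.21 for H2-Oa (-1.37 to 0.95) and 0.16 for H2-Ob (-0.84 to 1.16). Each interval reaches past a 2-fold change, downward for H2-DMb2 and H2-Oa and upward for H2-Ob, so that changes of that size lie within the error.

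Ciita, the coactivator of class II transcription, showed the widest diet difference of the set and the only fall after the switch. It had 19.4, 16.6 and 22.4 CPM in HFD adipocytes, 3.81, 2.84 and 1.71 CPM in LFD adipocytes and 7.78, 8.95 and 6.44 CPM in SW adipocytes, from 13 to 502 counts per library. The groups formed 3 separate bands, with LFD lowest, SW in between and HFD highest. Of all genes tested, 25.2% had SW wholly below HFD. Ciita was 7.03-fold higher in HFD than in LFD (log2 2.81, SE 0.25, edgeR adjusted p = 2.16e-05). It was 2.52-fold lower in SW than in HFD (log2 -1.33, SE 0.22, edgeR adjusted p = 0.00513), the only member called in that comparison, where 15.9% of all genes were lower and 15.6% higher. Against LFD it was still 2.79-fold higher (log2 1.48, SE 0.25, edgeR adjusted p = 0.00308).

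In the SW against LFD comparison 7 of the 10 members were higher and none lower, where 10.9% of all genes were higher and 6.18% lower. In 7 members SW lay wholly above LFD, as for 19.1% of all genes. They were the same 7 that were higher in HFD, and both comparisons share the LFD libraries. With HFD and SW averaged against LFD, 7 members were again higher (20.7% of all genes), with log2 fold changes from 1.42 for H2-DMa to 2.15 for Ciita.

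**Figure D2:**
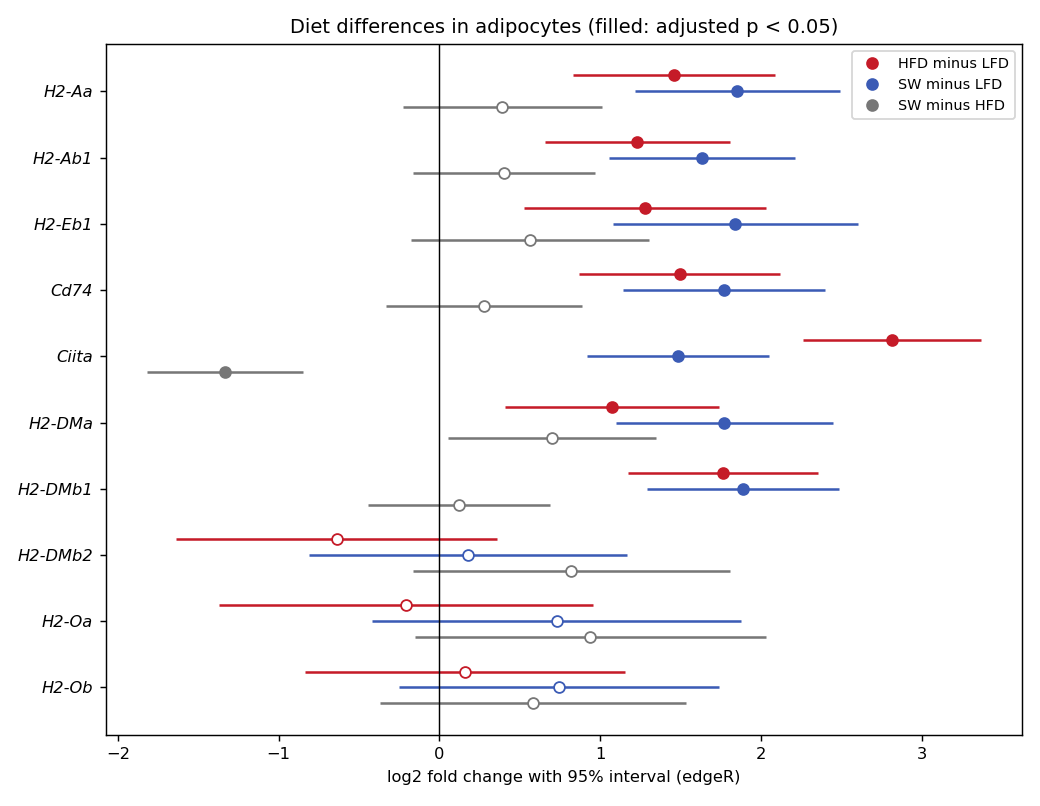
log2 fold changes of the 10 genes between diets in adipocytes, with 95% intervals from edgeR, not adjusted for the number of genes. Filled points passed an adjusted p of 0.05. For the classical chains the blue points (SW minus LFD) lie to the right of the red points (HFD minus LFD), with overlapping intervals. Ciita alone has a filled grey point (SW minus HFD), at -1.33.

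Ratios within a library set the members against each other and do not depend on library scaling. Per 1000 counts of the 3 classical chains, Ciita had 7.77 ± 1.16 counts in HFD adipocytes (SD, n = 3), 2.81 ± 0.988 in LFD and 2.50 ± 0.854 in SW. The HFD libraries lay above all others of the fraction, and LFD and SW overlapped. Cd74 per classical chain count was 0.809 in HFD, 0.723 in LFD and 0.734 in SW adipocytes. H2-DMb2 amounted to 1.60 to 2.85% of H2-DMb1 in HFD, 4.38 to 13.7% in LFD and 1.88 to 5.51% in SW adipocytes, uncertain because of the shared reads. The inhibitor chains amounted to 1.83% of H2-DMa and H2-DMb1 in HFD and 4.33% in LFD adipocytes. For Ciita per classical chains in HFD against LFD and against SW, for Cd74 per classical chains in SW against HFD, and for both of the editor ratios in HFD against LFD, an exact two-sided permutation test gave p = 0.1, the smallest that 3 against 3 libraries allow (Benjamini-Hochberg adjusted 0.32 over 16 tests).

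Markers of macrophages were higher in HFD adipocytes together with the class II genes. Of 11 macrophage markers, 10 were higher in HFD than in LFD adipocytes and none lower, where 26.5% of all genes were higher. Their median log2 fold change was 3.02. Their summed level ran from 579 to 987 CPM in LFD to 7113 to 8380.3 CPM in HFD and 4956 to 6948 CPM in SW adipocytes. The summed level of the 10 class II genes ran from 1374 to 2188 CPM in LFD to 4566 to 4901 CPM in HFD and 4072 to 8988 CPM in SW. Per unit of macrophage marker level, class II was 2.20 ± 0.322 in LFD, 0.603 ± 0.0650 in HFD and 1.05 ± 0.237 in SW adipocytes (SD, n = 3), without overlap between diets. Class II was thus lowest relative to these markers in the group where both the markers and Ciita were highest. From HFD to SW, 5 of the 11 macrophage markers fell and none rose, where 15.9% of all genes fell. Among them were Itgam (log2 -1.59), Adgre1 (log2 -1.22) and Mrc1 (log2 -1.12).

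The other class II bearing cells left fainter and less even marks. Of 10 dendritic cell markers, Itgax, which macrophages of obese fat also carry, was higher in HFD adipocytes (log2 4.37), while Zbtb46, Cd209a and Fscn1 were lower (log2 -1.21, -0.90 and -1.03) and 6 were not called. The dendritic cell sum, which includes Itgax, was 198 to 260.4 CPM in LFD and 297 to 453 CPM in HFD adipocytes. In SW adipocytes it was 292 to 384 CPM. The median log2 fold change of the 10 markers from LFD to HFD was -0.43, opposite in direction to the sum. The part of Itgax in the sum was not tested. Of 6 tested B cell markers only Cd22 was higher in HFD (log2 3.35). The B cell sum overlapped across diets, with 306 to 555 CPM in LFD and 384 to 543 CPM in HFD. Of the 8 adipocyte markers 6 were lower in HFD than in LFD, and their sum was 28329 to 38252 CPM in LFD and 11378 to 19077 CPM in HFD. Of the other lists, 2 of 3 mast cell markers and 2 of 6 fibroblast markers were higher in HFD. Lower were 1 fibroblast, 3 of 5 endothelial, 4 of 5 mesothelial and 4 of 4 erythroid genes, while 0 of 6 T cell markers were called. Over all genes tested, 26.5% were higher and 25% lower in HFD than in LFD adipocytes. The part of cell make-up in the class II differences was not tested.

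**Figure D3:**
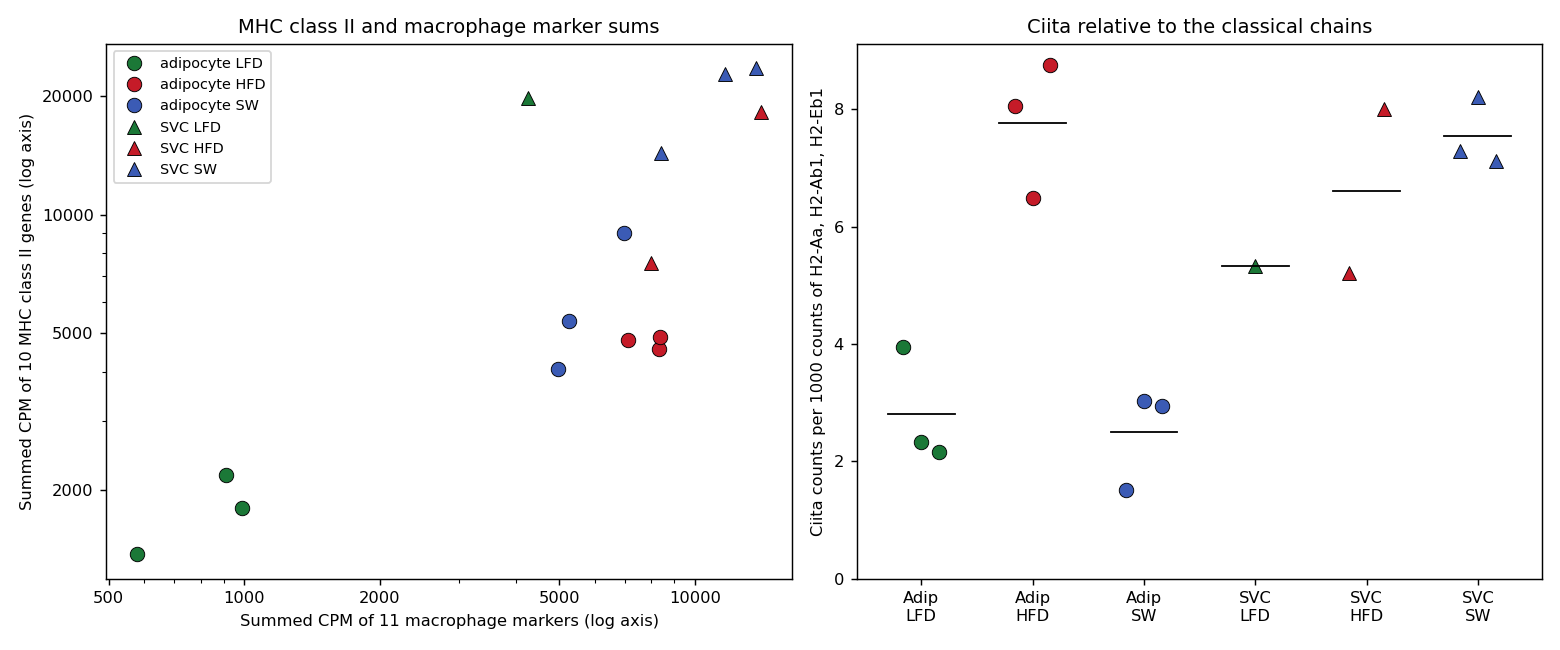
Left, summed CPM of the 10 class II genes against summed CPM of 11 macrophage markers in each library on log axes, with circles for adipocytes and triangles for SVCs. LFD adipocytes sit at the lower left, and the SVC LFD library combines a low marker sum with a high class II sum. Right, Ciita counts per 1000 counts of the classical chains, with bars for group means. HFD adipocytes lie above LFD and SW adipocytes.

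Genes that act around class II were examined as lists. Of 17 regulators of class II transcription 16 were tested in adipocytes, and 6 were higher and 3 lower in HFD than in LFD, close to the shares of all genes (26.5% higher and 25% lower). Spi1, which encodes the myeloid factor PU.1, had the largest log2 fold change (3.28), followed by Irf8 (1.92), a partner of PU.1, and Nfya (1.50), a subunit of the Y box factor NF-Y. Rfxap, a subunit of the X box factor RFX, was lower (log2 -0.96), as were Rfxank (-0.40) and Irf1 (-0.81), a target of interferon gamma signaling. Rfx5, the DNA binding subunit of RFX, was not called (log2 0.33, SE 0.23, edgeR adjusted p = 0.262). Ifng itself had at most 5 counts in any HFD or LFD adipocyte library and was not tested. From HFD to SW 3 of the 16 fell and 2 rose, close to the shares of all genes (15.9% lower and 15.6% higher). Those that fell were Nfya (log2 -0.87), Jak1 (-0.69) and Jak2 (-0.44), and those that rose were Irf1 (0.70) and Rfxap (0.36).

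Transcripts of the endosomal proteins that prepare peptides and trim the invariant chain were higher in HFD adipocytes almost throughout. Of the 12, 11 were higher and none lower, where 26.5% of all genes were higher and 25% lower. Ctss, cathepsin S, which makes the last cuts of the invariant chain in antigen presenting cells, led with a log2 fold change of 3.60 (SE 0.33), followed by Lgmn, a lysosomal endopeptidase (2.79), and Ifi30, the lysosomal thiol reductase GILT (2.65). Cst3, the cathepsin inhibitor cystatin C, was not called (log2 -0.18, edgeR adjusted p = 0.545). In SW against LFD, 10 of the 12 were still higher (10.9% of all genes), and Ctss stood at a log2 fold change of 3.50. Between SW and HFD, Ctsc (-0.70), Ctsl (-0.54) and Sppl2a (-0.44), an intramembrane protease of the CD74 stub, fell and the other 9 were not called. Of all genes, 15.9% fell.

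All 9 genes of class II turnover and sorting were higher in HFD than in LFD adipocytes, where 26.5% of all genes were. They ran from Arl8b, a lysosomal GTPase (log2 0.43), to Cd83, which keeps class II at the surface (log2 2.88). March1, the ubiquitin ligase that removes class II from the surface and opposes Cd83, was higher as well (log2 2.65). From HFD to SW 4 of the 9 fell, where 15.9% of all genes did. These were March1 (log2 -0.89, SE 0.19, edgeR adjusted p = 0.0106), March8 (-0.54), Ap1m1 (-0.45) and Lamp1 (-0.41). Cd83 had a log2 difference of -0.04 (SE 0.15, edgeR adjusted p = 0.849). Of the 5 costimulatory genes tested, Cd80 (2.40), Cd40 (1.33) and Cd86 (1.24) were higher in HFD and again in SW against LFD (log2 1.80, 1.51 and 1.41), and Icosl and Cd274 (log2 -0.37 for HFD minus LFD) were not called. Of all genes, 26.5% were higher in HFD and 10.9% in SW against LFD. Among 5 partners of CD74, Cd44, its signaling coreceptor, was higher in HFD (log2 2.38), as was Cxcr4 (0.66), and Ddt, a homolog of MIF, was lower (-1.36).

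Genes of the T cells that read class II were near the lower limit of detection in adipocytes. Of 4 tested, 1 was lower in HFD than in LFD, namely Lag3, an inhibitory class II receptor (log2 -1.38), where 25% of all genes were lower. From HFD to SW 2 of the 4 were higher, Lag3 (1.32, SE 0.27) and Cd3d (2.46, SE 0.74), where 15.6% of all genes were. The summed level of T cell markers was 6.01 to 12.5 CPM in HFD and 9.09 to 47.6 CPM in SW adipocytes, which overlap. Cd3g was not called (log2 0.36 for HFD minus LFD). Cd4 had 0.476 to 3.68 CPM in adipocytes and was not called (log2 0.11 for HFD minus LFD, SE 0.64). The further class II loci H2-Ea-ps and H2-Pb had no count in any library, H2-Eb2 had at most 20 counts in an adipocyte library, and Btnl2 was not called.

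**Figure D4:**
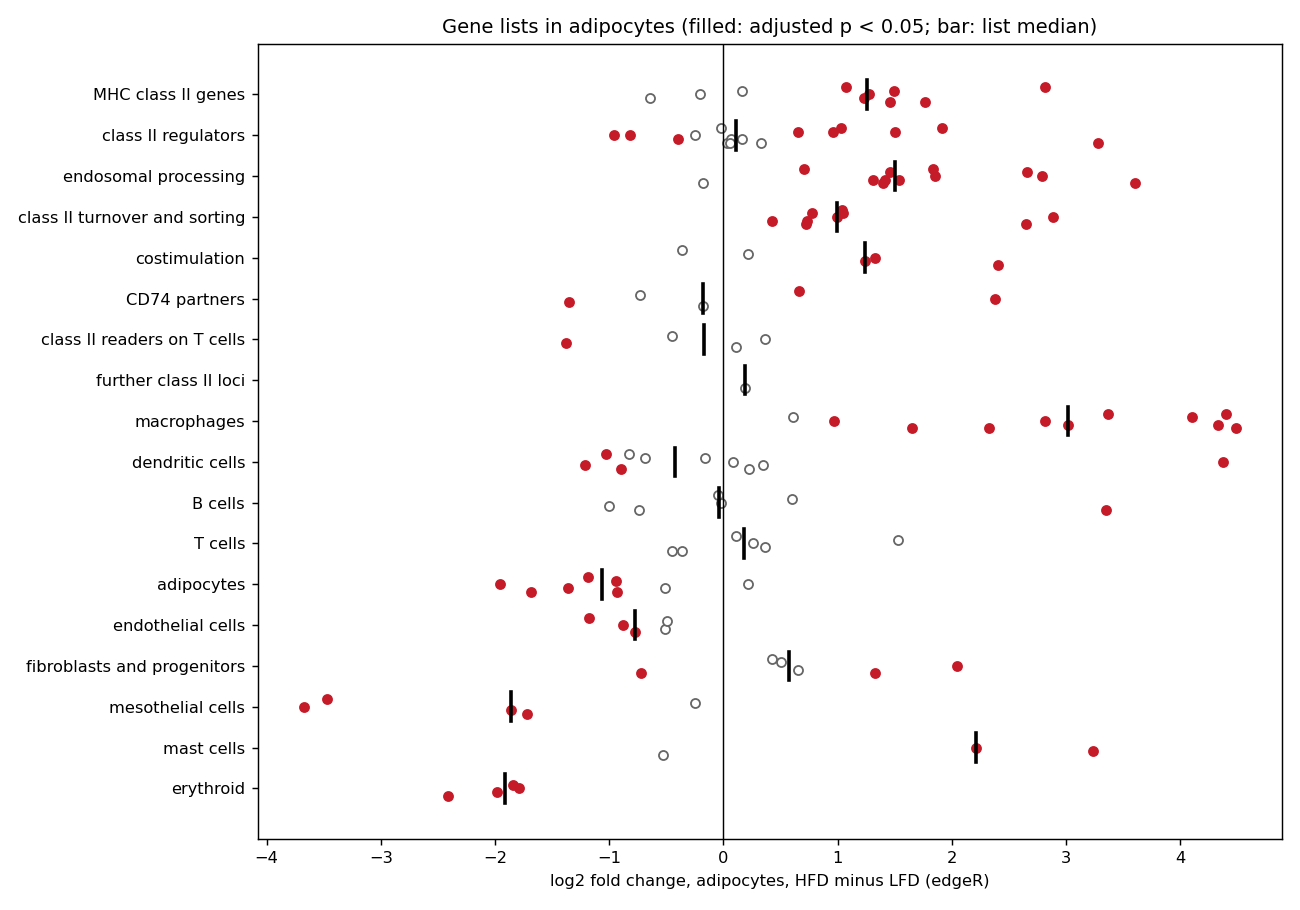
log2 fold change from LFD to HFD in adipocytes for the tested genes of each list, with filled red points for an adjusted p under 0.05 and a black bar for the list's median. Endosomal, turnover and macrophage genes lie almost wholly to the right of 0, while the regulators are spread to both sides with Spi1 at 3.28.

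In SVCs the classical chains and Cd74 were abundant on every diet, and no member was called between SW and HFD, the only diet pair tested there. The labels give 2 of 3 SVC HFD libraries a single-read run alone and all 3 SVC SW libraries a paired run as well, and the part of this in the SVC values was not tested. H2-Aa had 1441 and 3502 CPM in HFD libraries 212 and 411, 3549.6 CPM in the LFD library and 2694, 5209.6 and 4485 CPM in the 3 SW libraries. For H2-Ab1 the values were 1099.7 and 3859.6 CPM in HFD, 2869 CPM in LFD and 2553, 3659 and 3942 CPM in SW. H2-Eb1 had 1237 and 3111 CPM in HFD, 2400.2 CPM in LFD and 2234, 3644 and 3630.4 CPM in SW. Library 212 was lowest for each chain, and library 411 lay within the range of SW.

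Cd74 had 3505 and 6885 CPM in HFD SVCs, 10254 CPM in LFD and 6292, 10065 and 9841 CPM in SW. Ciita had 19.7 and 83.9 CPM in HFD, 47.0 CPM in LFD and 54.6, 103 and 85.9 CPM in SW. H2-DMa had 96.5 and 349.8 CPM in HFD, 456 CPM in LFD and 285, 464 and 430.0 CPM in SW. Library 411 lay above library 212 for all 10 members, and the gap was wide for the scarce ones, with H2-Oa at 1.39 and 16.2 CPM and H2-DMb2 at 5.04 and 33.5 CPM in the HFD libraries.

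Of the 10 members 0 were called between SW and HFD in SVCs by edgeR, where 5.71% of all 16319 genes tested were higher and 11.7% lower, and 0 had an unadjusted p under 0.05. limma-voom and DESeq2 also called 0, with 0 and 1 at an unadjusted p under 0.05. SW overlapped HFD for every member. The log2 difference was 0.74 for H2-Aa (95% interval -0.50 to 1.98), 0.75 for Cd74 (-0.36 to 1.86) and 0.65 for Ciita (-0.82 to 2.12), so that a rise of more than 2-fold lies inside each interval. Without library 411, 5 members were called higher in SW (H2-Ab1, H2-DMa, H2-DMb1, H2-Oa and Ciita), with log2 differences of 1.15 for H2-DMb1 to 3.20 for H2-Oa. That fit leaves library 212 alone in its group and assumes that it varies like the others. Without library 212, 0 were called.

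With 1 LFD library, HFD against LFD in SVCs has no replicate check and no test. The log2 ratio of the mean HFD level to the LFD level (0.5 CPM added to each) ran from -1.03 for H2-DMa to 0.57 for H2-Ob, with a median of -0.26 against 0.23 over all genes. H2-DMa alone was past 2-fold, where 28.7% of all genes were at least 2-fold higher and 17.4% at least 2-fold lower in HFD. The median of the members was 0.40 with library 411 alone and -1.34 with library 212 alone, so the 2 HFD libraries lie on opposite sides of the LFD library. The LFD library also had the highest mesothelial marker sum of the fraction, 834 CPM against 25.5 to 127 CPM in HFD. Its B cell marker sum was the highest as well, 2268 CPM against 740 to 894 CPM in HFD and 1168 to 1344 CPM in SW. Its macrophage marker sum of 4259 CPM was the lowest of the SVCs, and its class II sum per unit of macrophage markers was 4.65, against 0.941 to 1.30 in HFD and 1.70 to 1.96 in SW.

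Between the fractions every member was higher in SVCs. In SW mice all 10 were called higher, where 35.6% of all 17441 genes were. Log2 fold changes, on the joint scale of both fractions, ran from 1.42 for H2-DMb1 to 3.80 for Ciita, with 1.99 for H2-Aa (SE 0.39, edgeR adjusted p = 5.07e-04) and 2.25 for Cd74 (SE 0.35, edgeR adjusted p = 8.48e-05). In HFD mice all 10 were called higher as well, where 16.2% of all genes were, from 1.17 for H2-DMb1 to 3.87 for H2-Oa. The HFD calls rested on library 411, since none of the 10 was called without it, with log2 differences of 0.21 for H2-DMb1 to 1.63 for H2-Ob. The call of H2-DMb1 was also lost without adipocyte library 401, 402 or 403 (edgeR adjusted p = 0.0991, 0.0672 and 0.0786). The scarce members H2-DMb2, H2-Oa and H2-Ob, the last 2 known chiefly from B cells, had the largest differences in HFD (log2 3.31, 3.87 and 3.18). All 8 B cell markers were higher in SVCs than in adipocytes in HFD mice (median log2 fold change 3.92) and 5 of 8 in SW mice. So were 8 of 8 T cell markers in HFD and 6 of 8 in SW, and 4 of 4 erythroid genes on both diets. Of macrophage markers 3 of 11 were higher in HFD and 8 of 11 in SW. Of dendritic cell markers 5 of 10 were higher in HFD and 6 of 10 in SW, where 1 was lower. The HFD marker counts include library 411 and were not repeated without it. The part of these cells in the differences was not tested.

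**Figure D5:**
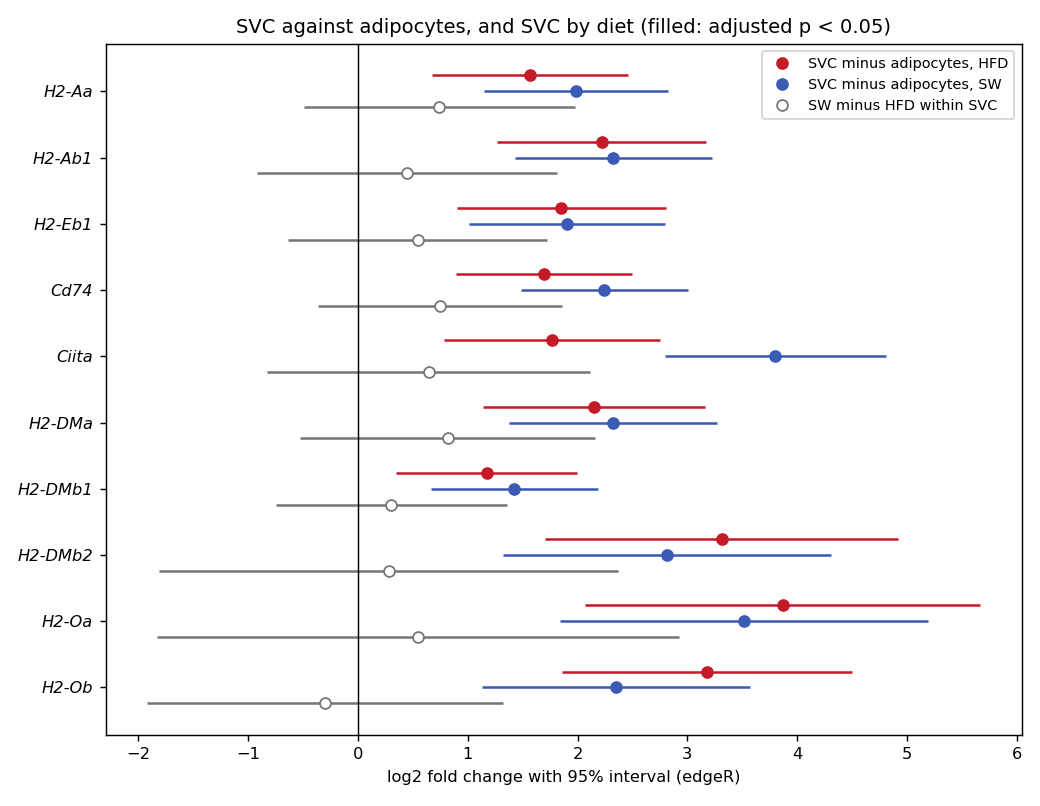
log2 fold changes with 95% intervals (edgeR) for SVCs against adipocytes in HFD (red) and in SW mice (blue), and for SW against HFD within SVCs (grey). Filled points passed an adjusted p of 0.05. The red and blue points all lie right of 0, from 1.17 for H2-DMb1 in HFD to 3.87 for H2-Oa in HFD, Ciita shows the widest gap between them, and every grey interval spans 0.

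The shift of Ciita between HFD and SW was unlike in the 2 fractions, and it was the only member called for this. The adipocyte change minus the SVC change was -2.03 on the log2 scale (SE 0.64, edgeR adjusted p = 0.0324), where 11.4% of all genes differed in that direction. The call was lost when any 1 of 7 libraries was left out (401, 403, 407, 408 and 409 of the adipocytes, 414 and 412 of the SVCs) and without the filter on low counts, with edgeR adjusted p from 0.0501 to 0.0694. Its value was -1.30 without library 212 and -3.45 without library 411. Without library 411, Ciita, H2-Ab1 (log2 -1.31) and H2-DMa (log2 -1.41) were called. For the other 9 members the difference over all libraries was between -0.55 (Cd74) and 0.83 (H2-Ob), and none was called.

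As a description of pattern, the non-members most like H2-Ab1 over the 15 libraries of both fractions were Coro1a (Pearson r of log2 CPM 0.994), Fgr (0.992), Gsdmd (0.992), Ninj1 (0.992) and Cfp (0.990), among 13065 genes compared. Those most like Ciita were Plcg2 (0.992), Colgalt1 (0.991), Sdc3 (0.991), Mcm5 (0.990) and Stard3 (0.989). The 15 points fall into fractions that differ in level, which all of these values share.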

How the data were processed

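Polyadenylated RNA of adipocytes and SVCs was sequenced as paired reads, single reads or both, per the labels: every labelled adipocyte library has a paired run, while 2 of 3 SVC HFD and 1 of 3 SVC LFD libraries have a single-read run alone. The columns do not say which these are. Per the methods and the submitters' processing notes, the authors aligned reads with Bowtie2 and estimated gene counts with RSEM, and mm9 is the named build; tool versions and the annotation release are not given in the sources used here. The deposited values are estimated counts per gene, stored as whole numbers without normalization, for 39017 Ensembl genes. Of the deposited columns 15 could be tied to a labelled group and 3, whose names match no labelled group, were not used. The labels list 2 runs for some libraries, and whether these were summed is not stated.

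Genes kept by filterByExpr (minimum count 10) were tested with the edgeR 4.0.16 quasi-likelihood test (TMM scaling, robust fit) in R 4.3.3, per fraction for diets and jointly for fractions, with Benjamini-Hochberg adjustment over all genes tested. A gene was called at an adjusted p under 0.05. CPM uses TMM factors within a fraction, and no gene length except where stated per kb. SVC HFD against LFD used ratios with 0.5 CPM added. Ratios within libraries were compared by exact permutation. Alternatives were DESeq2 1.42.0, limma-voom (limma 3.58.1), other scalings and filters, and leaving out each library. The fits were tested on simulated counts. Replicate libraries differed by more than sampling noise (chi-square per degree of freedom 13.7 or more). The 95% intervals of log2 differences come from the edgeR fits and include the spread between libraries, and floors cover counting error only. The members and lists were chosen with earlier results of these data known. The genes named were the 10 members, the genes of each list with the largest and smallest change between HFD and LFD adipocytes, others where a count needed them, and the 5 genes most like H2-Ab1 and Ciita. Positions and transcript lengths are from GENCODE M21 and promoters from RefSeq, both GRCm38.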

Additional observations from a re-analysis of the deposited data

Results flagged for a closer look

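The change of Ciita from HFD to SW mice differed between the fractions by a test of that difference. In adipocytes Ciita was lower in SW than in HFD, with 7.78, 8.95 and 6.44 CPM against 19.4, 16.6 and 22.4 CPM. In SVCs it had 54.6, 103 and 85.9 CPM in SW against 19.7 and 83.9 CPM in HFD, which overlap. The adipocyte change minus the SVC change was -2.03 on the log2 scale (95% interval -3.42 to -0.65, edgeR adjusted p = 0.0324). It was called under 9 of 17 alternatives, with adjusted p up to 0.0694 under the others, and ranged from -3.45 without library 411 to -1.30 without library 212. All 3 SW adipocyte libraries were below every HFD adipocyte library. The SVC side rests on the HFD libraries 212 and 411, which differ from each other in hemoglobin and mitochondrial share, and the part of these in the result was not tested.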

How the results depend on the processing

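Across the 10 members and the alternatives tried, 987 of 1053 values kept their direction and their side of the threshold, 24 lost a call, 8 gained a call and 34 changed sign, none of them called either way. The adipocyte calls against LFD held for 6 to 7 members with each library left out in turn and for 7 with SW or both diets against LFD. Counts over all genes moved more. For SW against HFD in adipocytes 4546 genes were called, and 1522 (without library 403) to 4290 with a library left out, with 1 to 2 members. For SW against HFD in SVCs 2849 were called by edgeR, 5222 by DESeq2, 1557 by limma-voom, and 0 (without 413 or 412) to 6213 (without 411) with a library left out, with 0 to 5 members. For SVCs against adipocytes in HFD 5078 were called, and 2528 (without 411) to 7044 (without 212) with a library left out, with 0 to 10 members. There limma-voom called 8 members, losing H2-DMb1 (limma adjusted p = 0.0709) and H2-Oa (0.0865). The difference between fractions in the SW step was called for 4727 genes, and for 2936 to 6622 with a library left out. For that difference 1 member was called, 0 without a filter on low counts, and 0 to 3 with a library left out. The summed CPM of the members in the SVC LFD library was 19801, and 19611 by library totals. The cause of these shifts was not tested, and leaving out a library also lowers the number of libraries. No paired analysis was possible because the columns carry no replicate number from the labels. With at least 10 counts required in every library H2-Oa could not be tested in the fits that include adipocytes, where it had 2 to 32 counts.

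The sign changes fell on differences that did not pass the test, and 31 of the 34 came from leaving out a library. For HFD against LFD in adipocytes the log2 difference ranged from -0.55 to 0.80 for H2-Oa and from -0.064 to 0.68 for H2-Ob with a library left out. For SW against HFD in adipocytes it ranged from -0.054 to 0.48 for Cd74 and from -0.19 to 0.26 for H2-DMb1. For SW against LFD it ranged from -0.17 to 0.71 for H2-DMb2, and for both diets against LFD from -0.51 to 0.30 for H2-DMb2 and from -0.080 to 1.27 for H2-Oa. For SW against HFD in SVCs the lowest values came without library 212 and the highest without 411. They were -0.12 to 1.63 for H2-Ab1, -0.15 to 1.15 for H2-DMb1, -0.45 to 2.21 for H2-DMb2, -0.27 to 3.20 for H2-Oa and -0.93 to 1.12 for H2-Ob. For the difference between fractions the lowest values came without 411 and the highest without 212. They were -1.21 to 0.13 for H2-Aa, -1.31 to 0.56 for H2-Ab1, -0.88 to 0.51 for H2-Eb1, -1.41 to 0.51 for H2-DMa, -1.11 to 0.32 for H2-DMb1, -1.45 to 1.33 for H2-DMb2, -2.33 to 1.25 for H2-Oa and -0.61 to 1.57 for H2-Ob. There limma-voom gave -0.0034 for H2-DMb2 and -0.48 for H2-Oa, and the stricter filter on counts gave 0.038 for H2-Eb1.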

Other observations

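The balance between members also differed between libraries. H2-Ab1 per count of H2-Aa was 0.629 to 0.653 in HFD, 0.737 to 0.775 in LFD and 0.598 to 0.728 in SW adipocytes. Cd74 per classical chain count was 1.16 in the SVC LFD library, 0.657 to 0.928 in HFD and 0.804 to 0.841 in SW SVCs. H2-DMb2 amounted to 23.8% of H2-DMb1 in the SVC LFD library, 4.01 to 10.3% in HFD and 5.08 to 13.1% in SW SVCs, uncertain because the genes share reads. Both ratios were highest in the only lean SVC library, which has no replicate. That library also had the highest B cell marker sum of the SVCs (2268 CPM), and the part of this in the ratios was not tested.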
